A study of Mus musculus with 4 samples.

Results

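The mouse genes Csmd1, Astn2, Nav2, Kirrel3, Ptprg, Pde4d, Elmo1, Sntg1 and Luzp2 are 9 long protein-coding genes out of 21887 in the RefSeq annotation of GRCm38.p6 (mm10). They were chosen from measured values, as long genes reported to hold many regions open in oligodendrocytes (OLs) and not in oligodendrocyte progenitor cells (OPCs). The contrast between OLs and OPCs inside these genes is therefore described here without a test, and tests were kept for sequence outside the genes, for the contrast between cell lines and for related genes. Each gene was taken as its annotated interval plus 2 kb on either side, and lengths ran from 0.434 Mb for Luzp2 to 1.64 Mb for Csmd1.

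Open DNA was mapped by Omni-ATAC-seq, a method that cuts and tags it with the Tn5 transposase. It had been run on nuclei of 50000 cells per sample. The OL group held sorted cells positive for the O1 antigen, 1 library from the epiblast stem cell line 129O1 and 1 from the line EpiSC5 (n = 2). The OPC group held 1 library from each of the same lines (n = 2), from cells that carried CD140a and NG2 at sorting, after 4 passages, and were then grown on in medium with 20 ng/mL bFGF and 20 ng/mL PDGFA. The labels list the same passage number and the same bFGF and PDGFA amounts for the OL libraries. Cells of every group came from pluripotent stem cells in culture, without SHH in maintenance or differentiation, and the labels name 129SvEv and 129S1/SvImJ as the strains of origin. Each line is a single stem cell line, and the labels do not say whether libraries came from separate differentiations, so a p-value reflects only how far these libraries spread.

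OPCs divide and migrate in the brain before they stop dividing and become OLs, which extend many processes and wrap axons in myelin. Regulatory DNA that is open in a given cell type often lies inside introns, and very long genes of the nervous system have room for many such elements. Several of the 9 genes act at the cell surface (Csmd1, Astn2, Kirrel3, Ptprg), others in the cytoskeleton or in signalling inside the cell (Nav2, Elmo1, Pde4d), and Sntg1 encodes an adaptor protein.

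The deposited lists held 127196 and 152595 peaks in the 129O1 and EpiSC5 OL libraries, and 129534 and 125002 peaks in the 129O1 and EpiSC5 OPC libraries. They covered 35.0 to 44.1 Mb. The labels give the same nominal number of reads and the same read length for every library. The lists carry no read counts, so the usable depth of each library is unknown. A merged region is a stretch of overlapping or touching peaks of any list. A region was called OL-only when both OL lists and neither OPC list had a peak in it, OPC-only in the converse case, and shared when all 4 lists had one. Of 229743 merged regions 35878 were OL-only, 22713 OPC-only and 55466 shared. Where no peak is listed the site may still be open below the threshold of the caller, and in bulk samples fewer open cells and less signal per cell cannot be told apart. Coverage of a gene below is the sequence under peaks, scaled to the mean total of the 4 lists.

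Marker genes were read for the labels, from lists drawn up with earlier results of these data known, so they are not an independent check. By limma with Benjamini-Hochberg adjustment (threshold 0.05), 4 of 8 OL markers had more coverage in OLs than in OPCs and none less. Of these 8, Mog had too little coverage for the test. Enpp6, a marker of newly formed OLs, had 5.16 and 5.20 kb in OLs against 2.10 and 2.18 kb in OPCs. Over all 14543 genes tested, 11.0% were higher and 8.63% lower in OLs. None of the 4 OPC markers (Pdgfra, Cspg4, Ptprz1, Gpr17) passed this test, and their summed coverage was 11.6 kb in both OL libraries and 11.0 and 11.6 kb in OPCs. The summed coverage of 5 vascular and mesenchymal markers was 1.52 to 2.09 kb in OLs and 6.78 to 7.22 kb in OPCs, with 4 of 5 lower in OLs and Cldn5 at 0 in every library. For 5 astrocyte markers the sums were 6.38 to 6.75 kb in OLs and 9.10 to 9.23 kb in OPCs (2 lower), and for 5 neuron markers 18.2 to 20.1 kb in OLs and 21.8 to 25.5 kb in OPCs (4 lower). The 4 microglia markers summed to 2.43 to 2.80 kb in OLs and 2.51 to 2.75 kb in OPCs. Of these, Csf1r and P2ry12 were not called, and Cx3cr1 and Aif1 had too little coverage for the test. Of the pluripotency markers, Pou5f1 was at 0 in every library, and Nanog had 0.516 and 0.454 kb in OLs and 0.222 and 0.314 kb in OPCs. The part of these other cell types in the results on the 9 genes was not tested.

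Among the genes of the cell surface, Csmd1 and Astn2 had more than double the coverage in OLs. Csmd1 (chromosome 8, 15892538 to 17535385) encodes a giant membrane protein with CUB and Sushi domains that restrains complement. Its covered sequence was 34.0 and 28.0 kb in the 129O1 and EpiSC5 OLs, against 17.0 and 10.9 kb in the OPCs of the same lines. The means were 31.0 ± 4.205 kb in OLs and 13.9 ± 4.36 kb in OPCs (SD, n = 2 each), a ratio of 2.25 and a log2 difference of 1.17 with 200 bp added. Every OL library lay above every OPC library, and 129O1 was the higher line in both cell types. Astn2 (chromosome 4, 65380803 to 66404537), which encodes astrotactin 2, a protein of the migration of neurons along glia, had 23.7 and 25.03 kb in OLs against 12.2 and 10.7 kb in OPCs. Here too the groups did not overlap, and the ratio was 2.11.

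Ptprg and Kirrel3 differed less or not beyond the spread between libraries. Ptprg (chromosome 14, 11553440 to 12242041), a receptor tyrosine phosphatase that binds contactins, had 22.5 and 21.2 kb in OLs against 16.0 and 17.3 kb in OPCs. These groups did not overlap, with a ratio of 1.31. Kirrel3 (chromosome 9, 34485853 to 35040807), an immunoglobulin adhesion protein of synapse formation, had 16.1 and 18.1 kb in OLs against 15.04 and 17.0 kb in OPCs. Within each line OL was the higher library, but the ranges of the groups overlapped and the ratio was 1.07.

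Of the cytoskeletal and signalling genes, Nav2 and Elmo1 had somewhat more coverage in OLs, and Pde4d did not. Nav2 (chromosome 7, 48959063 to 49610090) encodes neuron navigator 2, a microtubule-associated protein of neurite growth, and had 28.2 and 28.0 kb in OLs against 21.5 and 25.9 kb in OPCs. Elmo1 (chromosome 13, 20090507 to 20608353), which activates Rac1 together with Dock proteins, had 19.7 and 19.8 kb in OLs against 16.5 and 14.7 kb in OPCs. The ratios were 1.19 for Nav2 and 1.26 for Elmo1, without overlap between groups, but the log2 difference of Nav2, 0.25, became 0.11 when the 129O1 OPC library was left out. Pde4d (chromosome 13, 108654177 to 109955969), a phosphodiesterase that breaks down cyclic AMP, had 21.8 and 24.5 kb in OLs against 24.1 and 23.7 kb in OPCs. Its groups overlapped, with a ratio of 0.967.

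Sntg1 and Luzp2 had the least coverage. Sntg1 (chromosome 1, 8359739 to 9301657), which encodes gamma-1 syntrophin, an adaptor of the dystrophin complex, had 4.75 and 5.83 kb in OLs against 2.75 and 3.02 kb in OPCs. Luzp2 (chromosome 7, 54835245 to 55268888), a leucine zipper protein gene whose transcript is used as a marker of OPCs in the brain, had 4.23 and 7.22 kb in OLs against 1.22 and 1.54 kb in OPCs. In both genes every OL library lay above every OPC library, with ratios of 1.77 and 3.65. The EpiSC5 OL library was the higher OL library in each.

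In 7 of the 9 genes both OL libraries had more coverage than both OPC libraries, and in none the reverse held. The same order was found in 27.4% of all 14543 genes with enough coverage and in 36.9% of 287 such genes at least as long as Luzp2, and the reverse order in 28.1% and 27.5%. Since the genes were chosen by this contrast, nothing is read from the count. The median log2 difference was 0.39 over the 9 genes, -0.02 over all genes and 0.04 over the long genes.

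**Figure D1:**
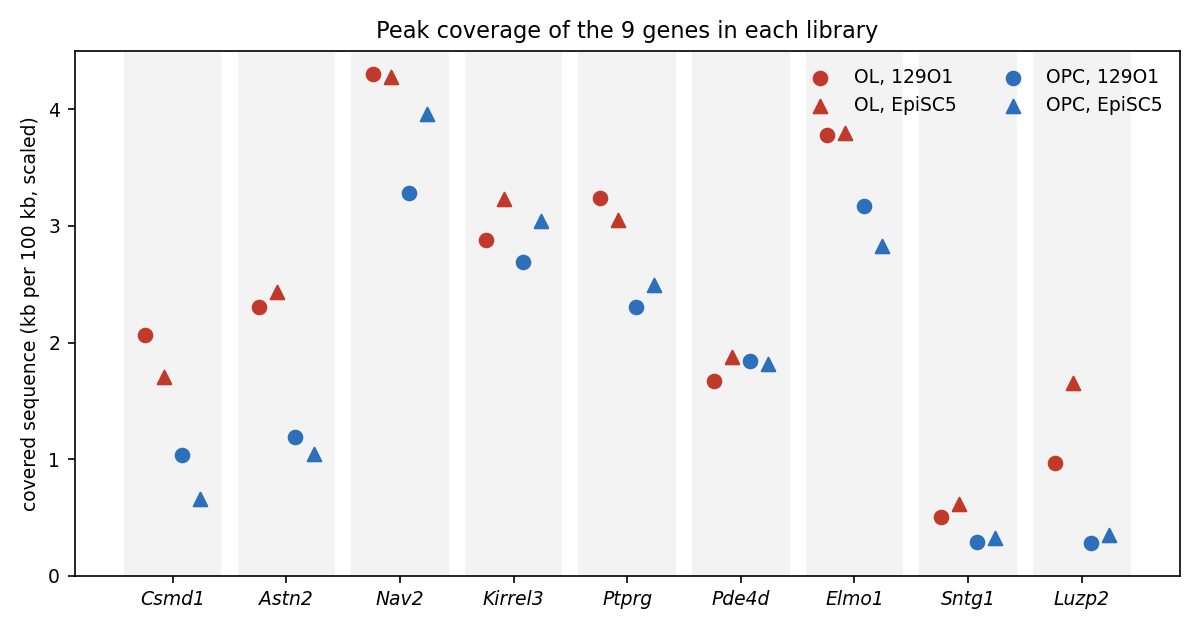
Covered sequence in each library for the 9 genes (horizontal axis), as scaled kb of peaks per 100 kb of gene (vertical axis). Each point is 1 library, red for OL and blue for OPC, circles for 129O1 and triangles for EpiSC5. Red points lie above blue ones in 7 genes and mix with them in Kirrel3 and Pde4d.

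Per length, Nav2 was the most densely covered of the 9 genes and Sntg1 the least in OLs. In OLs the scaled coverage per 100 kb was 4302 and 4275 bp in Nav2, 3784 and 3802 bp in Elmo1, 3244 and 3054 bp in Ptprg, and 2882 and 3231 bp in Kirrel3. It was 2302 and 2436 bp in Astn2, 2063 and 1702 bp in Csmd1, 1667 and 1880 bp in Pde4d, 967 and 1651 bp in Luzp2, and 502 and 616 bp in Sntg1. The pairs Ptprg and Kirrel3, and Csmd1 and Pde4d, overlapped in this order, while the other neighbours did not. In OPCs the top was again Nav2 with 3283 and 3959 bp per 100 kb, and Luzp2 with 279 and 352 bp overlapped Sntg1 with 291 and 319 bp at the bottom. Pde4d, with 1844 and 1816 bp, stood above Astn2 (1188 and 1042 bp) and Csmd1 (1033 and 659 bp) in OPCs, whereas in OLs Astn2 lay above Pde4d.

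The start sites of the genes bear on where the difference lies, so promoters are shown for starts that were open in all libraries and for starts that were not. RefSeq promoter sequence of GRCm38.p6 (250 bases before to 50 after each start) was matched for 6 of the 9 genes, with 9 starts. The 5 promoters below are printed 5′ to 3′ on the gene's strand, and capitals mark CpG dinucleotides.

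Nav2, start 2 (chr7:49245939-49246238, plus strand): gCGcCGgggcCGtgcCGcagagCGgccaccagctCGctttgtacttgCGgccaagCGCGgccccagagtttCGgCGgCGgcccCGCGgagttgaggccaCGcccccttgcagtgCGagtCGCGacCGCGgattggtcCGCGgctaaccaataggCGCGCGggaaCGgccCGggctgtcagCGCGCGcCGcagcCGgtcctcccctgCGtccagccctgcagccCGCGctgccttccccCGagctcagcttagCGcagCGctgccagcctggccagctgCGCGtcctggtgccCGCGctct

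Elmo1, start 1 (chr13:20090257-20090556, plus strand): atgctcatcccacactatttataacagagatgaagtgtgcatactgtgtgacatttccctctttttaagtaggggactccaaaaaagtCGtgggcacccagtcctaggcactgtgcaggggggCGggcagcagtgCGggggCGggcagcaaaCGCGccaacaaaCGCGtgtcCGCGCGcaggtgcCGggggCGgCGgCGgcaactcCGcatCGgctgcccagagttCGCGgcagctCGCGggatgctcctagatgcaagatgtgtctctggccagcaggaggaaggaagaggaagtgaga

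Elmo1, start 2 (chr13:20472740-20473039, plus strand): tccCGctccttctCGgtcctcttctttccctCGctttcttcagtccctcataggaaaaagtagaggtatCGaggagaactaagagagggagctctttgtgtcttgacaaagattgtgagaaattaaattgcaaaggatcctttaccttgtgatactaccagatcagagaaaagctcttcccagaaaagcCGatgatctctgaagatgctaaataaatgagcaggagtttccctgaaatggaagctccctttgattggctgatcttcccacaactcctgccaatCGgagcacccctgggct

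Pde4d, start 1 (chr13:108653927-108654226, plus strand): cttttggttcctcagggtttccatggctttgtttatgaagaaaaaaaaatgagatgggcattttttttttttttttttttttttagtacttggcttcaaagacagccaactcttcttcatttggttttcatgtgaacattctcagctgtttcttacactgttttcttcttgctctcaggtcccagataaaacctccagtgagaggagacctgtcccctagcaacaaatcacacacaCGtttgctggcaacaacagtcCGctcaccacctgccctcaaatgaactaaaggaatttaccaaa

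Luzp2, start 1 (chr7:54834995-54835294, plus strand): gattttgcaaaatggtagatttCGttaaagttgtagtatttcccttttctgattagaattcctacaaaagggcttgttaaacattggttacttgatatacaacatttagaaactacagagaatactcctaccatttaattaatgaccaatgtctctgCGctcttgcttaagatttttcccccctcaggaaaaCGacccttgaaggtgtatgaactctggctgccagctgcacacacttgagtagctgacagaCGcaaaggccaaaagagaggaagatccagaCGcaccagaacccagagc

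The Nav2 window has 42 CpG dinucleotides and 74.7% G and C, and a peak covered all 300 bp of it in each of the 4 libraries. The first Elmo1 start has 21 CpG and a peak in every library, covering 136 and 121 bp in the 129O1 and EpiSC5 OLs and 300 bp in both OPC libraries. The second Elmo1 start, inside the gene, has 6 CpG, and peaks covered 63 bp of it in the 129O1 OPC library and none in the others. The windows of Pde4d, with 2 CpG, and Luzp2, with 5, held no peak in any library. The single start of Astn2 and both starts of Ptprg and of Nav2 also had peaks in all 4 lists. Among all 32851 RefSeq promoters 39.9% had a peak in all 4 lists, with a median of 23 CpG, and 50.9% had none, with a median of 3.

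Each motif searched for had a match among the 9 windows. The GC box GGGCGG, read on both strands, was found in the windows of Astn2 (2 matches), Nav2 start 1 (1) and Elmo1 start 1 (3), and in 35.7% of all promoters. The letters CCAAT were found, on either strand, in both Nav2 windows, in Elmo1 start 2 and in Luzp2, and in 37.4% of all promoters. TATAAA, also read on both strands, was found only in Elmo1 start 1 among the 9 windows, there as its reverse complement TTTATA, against 13.6% of all promoters. A match is a description of letters and not a bound site.

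Within 2 kb of a gene end, 8 of the 9 genes had a shared region, and Pde4d had none. In Csmd1, Astn2, Kirrel3 and Sntg1 it lay at the upper-coordinate end, and in Nav2, Ptprg, Elmo1 and Luzp2 at the lower-coordinate end. Strand, known for the 6 genes with promoter sequence, makes this the start of the gene in Astn2, Nav2, Ptprg, Elmo1 and Luzp2. At the start of Luzp2 peaks covered 1310 and 1638 bp in the 129O1 and EpiSC5 OLs against 893 and 1505 bp in OPCs, before scaling. This was the sole shared region of Luzp2 and lay outside the 300 bp window printed above.

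The 9 genes together held 307 OL-only, 79 OPC-only and 190 shared regions among 1139 merged regions. Csmd1 had 60 OL-only and 7 OPC-only regions, Astn2 49 and 9, Nav2 40 and 12, and Kirrel3 36 and 9. Ptprg had 35 and 10, Pde4d 34 and 17, Elmo1 33 and 14, Sntg1 11 and 1, and Luzp2 9 and 0. OL-only regions thus outnumbered OPC-only regions in each gene, as the choice of genes fixes in large part. In Pde4d the difference of 17 regions became -6 when the EpiSC5 OPC library was left out and 0 without the 129O1 OPC library. In the other genes it stayed positive with any library left out, but its size moved. Cutting each list to its best peaks by q made the difference smaller in every gene, as given under the processing below. With a library left out, a peak in the 1 list left in that group was enough. The region classes therefore grew in part by definition, most of all the class of that group. Without the 129O1 OPC library the difference was 10 in Nav2, 13 in Kirrel3 and 13 in Ptprg, against 28, 27 and 25 with all libraries. Without the EpiSC5 OPC library it was 12 in Kirrel3 and 10 in Elmo1, against 27 and 19 with all libraries. Leaving out the 129O1 OL library raised it in every gene, by over 1.5 times except in Csmd1, from 18 in Sntg1 and 26 in Luzp2 to 74 in Csmd1 and in Astn2. Csmd1 reached 81 without the EpiSC5 OL library, against 53 with all libraries.

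Divided by length, the genes differed widely in rank. Among 298 protein-coding genes at least as long as Luzp2, Kirrel3 ranked 3 with 6.44 OL-only regions per 100 kb, Elmo1 4 with 6.32, and Nav2 6 with 6.11. Ptprg ranked 11 with 5.05, Astn2 12 with 4.77, Csmd1 32 with 3.64 and Pde4d 64 with 2.60. Luzp2 ranked 90 with 2.06, inside the middle range of these genes (quartiles 0.624 and 2.28), and Sntg1 ranked 166 with 1.16, below their median of 1.39. Against these 298 genes 7 of the 9 lay above the upper quartile, and Luzp2 and Sntg1 did not. Among 990 genes of at least 200 kb the upper quartile was 3.20, and 6 of the 9 lay above it. There Csmd1 ranked 200, Pde4d 323, Luzp2 438 and Sntg1 650. The place of Luzp2 rests on few regions. Its 9 OL-only regions became 26 without the 129O1 OL library, when a peak in the EpiSC5 OL list alone was enough. This put Luzp2 at rank 31 of 298 and above the upper quartile. The OL-only regions of Sntg1 became 19 in the same way, at rank 187 and still below the median. Without the EpiSC5 OL library Pde4d, at rank 76, lay just below the upper quartile. Kirrel3, Elmo1 and Nav2 ranked lower when each list was cut to its best peaks by q, as given under the processing below. Next above Sntg1 stood Cntn5, Dlgap1 and Dlg2 with 1.18, 1.17 and 1.16 per 100 kb, and next below it Csmd3, Fhit and Grip1 with 1.15, 1.11 and 1.10.

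Summed over the 9 genes the density was 3.94 OL-only regions per 100 kb, against 1.49 in the other 289 long genes. For OPC-only regions it was 1.01 against 0.867, and for shared regions 2.44 against 1.46. OL-only regions made up 27.0% of the merged regions in the 9 genes and 18.3% in the other long genes. The gene with the highest density was Sema5a with 8.34, followed by Agap1 with 6.52, both named after their values were seen. Elmo1 was also among the densest in OPC-only regions (rank 7 with 2.68 per 100 kb), and Nav2 ranked 2 in shared regions with 5.65.

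**Figure D2:**
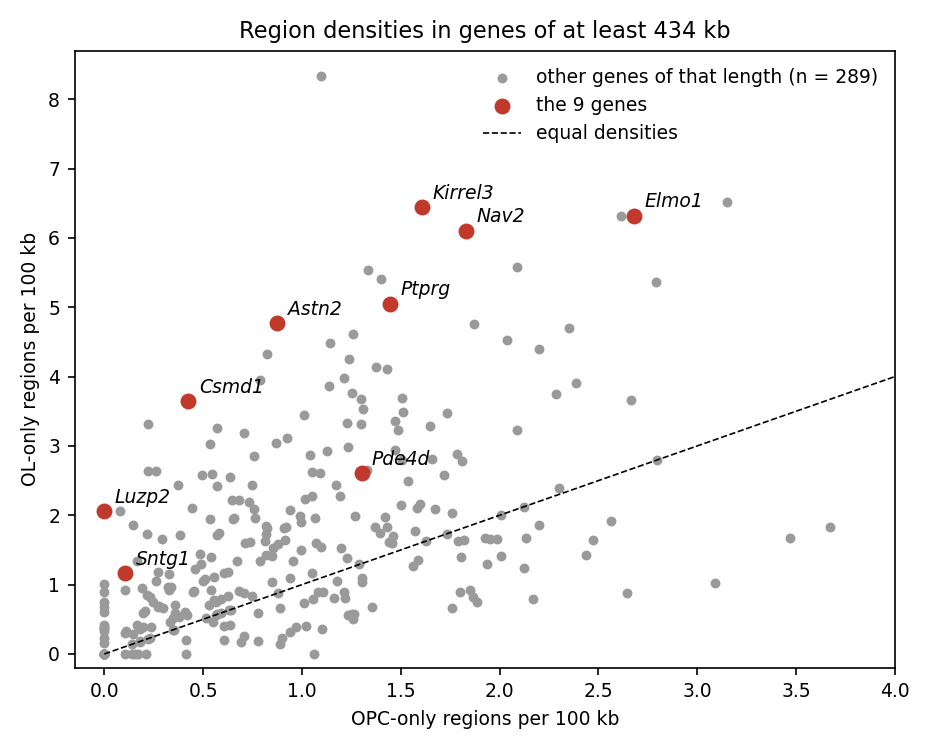
OL-only regions (vertical axis) against OPC-only regions (horizontal axis), both per 100 kb, for the 298 genes at least as long as Luzp2. Red points are the 9 genes, gray points the other 289, and the dashed line marks equal densities. Kirrel3, Elmo1 and Nav2 stand near the top, with 6.11 to 6.44 OL-only regions per 100 kb. The gray points of Sema5a at 8.34 and Agap1 at 6.52 lie above them, and Sntg1 at 1.16 lies among the gray points.

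OL-only regions were spread over the whole length of most of the genes. With each gene cut into 10 equal parts, all 10 held at least 1 OL-only region in Csmd1, Astn2, Nav2, Kirrel3, Ptprg and Elmo1. The fullest part held 12 of 60 in Csmd1, 9 of 49 in Astn2 and 5 of 33 in Elmo1. The median gap between neighbouring OL-only regions was 8.68 kb in Elmo1 and 11.4 to 13.1 kb in Csmd1, Astn2, Nav2, Kirrel3 and Ptprg. Their longest gap took from 8.53% of the gene in Csmd1 to 15.5% in Elmo1.

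The other genes had a lopsided spread. In Pde4d 27 of 34 OL-only regions lay beyond the middle of the gene, away from the single start matched for it. Of these, 10 lay in part 8 of 10. Shared regions of Pde4d leaned the same way, 24 of 34. In Luzp2 8 of 9 lay between the start and the middle, 4 of them in part 2. In Sntg1, whose strand is not in the annotation used, the 11 regions fell into 4 of the 10 parts, and counted from the lower coordinate the first 4 parts held none. Over the 6 genes with a known strand each of the 10 parts held between 13 and 28 OL-only regions, with 21 in the first part and 23 in the last. Shared regions in these genes numbered 21 in the first part and 9 in the last.

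**Figure D3:**
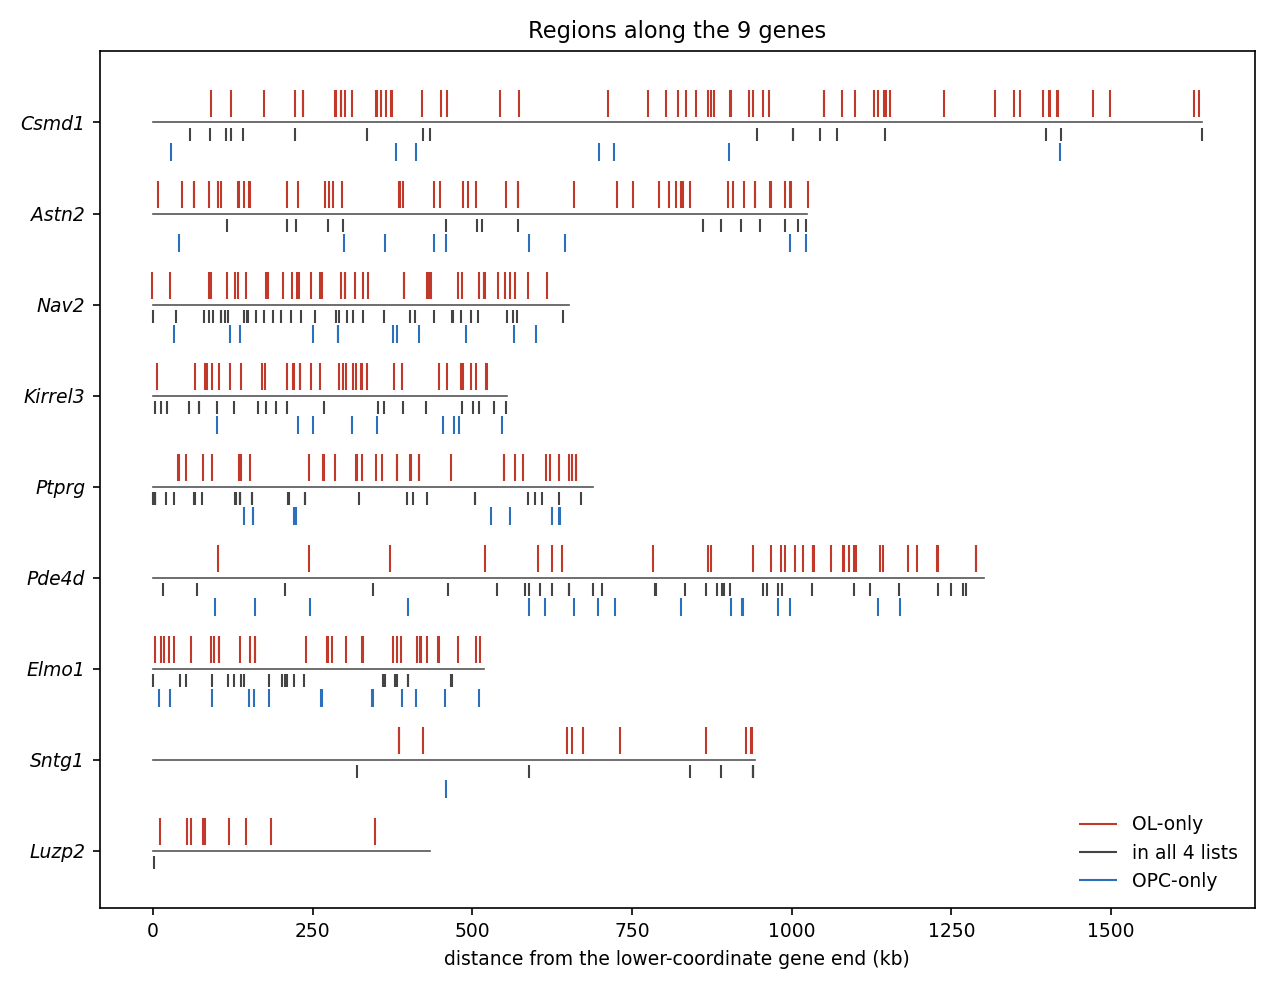
Position of each region along the 9 genes, as distance in kb from the lower-coordinate gene end (horizontal axis), 1 row per gene. Red ticks above the line are OL-only regions, black ticks are shared regions and blue ticks below are OPC-only regions. Red ticks run along the whole of Csmd1, Astn2, Nav2, Kirrel3, Ptprg and Elmo1, crowd toward the upper-coordinate end of Pde4d and toward the lower-coordinate end of Luzp2.

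Regions inside these genes can also belong to other genes, and 2 nested protein-coding genes held OL-only regions. C030002A05Rik lies in Csmd1 and held 2 of its 60, and Trim32, a ubiquitin ligase gene, lies in Astn2 and held 1 of its 49 and 1 shared region. The annotation used has no exons, so regions were not assigned to exons or introns.

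In each gene the widest covered OL-only region was 373 to 1111 bp long. In Ptprg it spanned 11871472 to 11872582 on chromosome 14, 318 kb from the start of the gene, and its peaks were 1108 bp wide in 129O1 OLs and 1104 bp in EpiSC5 OLs. The authors' fold enrichment there was 7.13 and 7.52, near the middle of each list (percentiles 55.2 and 58.6). In Astn2 the region was 65590479 to 65591381 on chromosome 4, and in Luzp2 54980336 to 54981127 on chromosome 7, 145 kb from the start. The Luzp2 peak was 300 bp wide in 129O1 and 792 bp in EpiSC5, with folds of 10.5 and 11.2 (percentiles 85.4 and 86.4). In Csmd1 it spanned 16824972 to 16825597 on chromosome 8, with folds of 9.33 and 11.3. The Pde4d region (108898467 to 108898987 on chromosome 13) had folds of 8.91 and 14.5, at percentiles 74.0 in 129O1 OLs and 96.4 in EpiSC5 OLs. In EpiSC5 OLs this was the highest percentile of the 9 regions, while in 129O1 OLs the Kirrel3 region stood highest, at 86.0.

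Those of the remaining genes were shorter. The Nav2 region lay at 49161952 to 49162410 on chromosome 7, the Kirrel3 region at 34732565 to 34733004 on chromosome 9, the Elmo1 region at 20226096 to 20226568 on chromosome 13 and the Sntg1 region at 8744550 to 8744922 on chromosome 1. Nav2 had the lowest folds among these, 4.92 and 5.74, at percentiles 21.7 and 33.3 of the lists.

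Pooled over the 9 genes, OL-only peaks had lower median widths and folds than OL-only peaks in general, and a smaller share stood at the top of the lists. Their median width was 168 bp in 129O1 OLs and 196.5 bp in EpiSC5 OLs, against 172 and 215 bp for all OL-only peaks of the same lists. Their median fold was 5.91 and 7.05, against 6.28 and 7.75 for all OL-only peaks. Shared peaks of the 9 genes were wider in the same lists, with medians of 225 and 222.5 bp. Of the OL-only peaks in the 9 genes 11 of 313 (3.51%) in 129O1 OLs were in the top 10% of their list by fold, against 6.14% of all OL-only peaks. In EpiSC5 OLs it was 22 of 312 (7.05%), against 13.2%. These differences were not tested. Nav2 stood lowest, with a median fold of 4.56 and 5.37, at percentiles 15.6 and 28.0. OPC-only peaks, with medians of 203 bp in 129O1 OPCs and 264 bp in EpiSC5 OPCs, were wider than the medians of all OPC-only peaks, 184 and 221 bp.

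The share of OL peaks that overlapped an OPC peak of the same line was lower in each of these genes than in the whole lists, which the choice of genes favours and which was not tested. Of all OL peaks 57.5% overlapped an OPC peak in 129O1 and 52.1% in EpiSC5 (by at least 1 bp). In Csmd1 the shares were 27.7% and 25.2%, in Astn2 27.9% and 21.1%, and in Luzp2 28.6% and 6.90%. The highest were 50.0% in Pde4d in 129O1 and 45.5% in Ptprg in EpiSC5. Seen from the OPC side, 50.6% and 70.2% of the OPC peaks in Csmd1 overlapped an OL peak, against 54.0% and 57.8% of all OPC peaks.

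Sequence outside the genes, which had not been used to choose them, was tested from 2 to 100 kb beyond either gene end. Of the 8 genes with enough flanking coverage, Luzp2 was higher and Nav2 lower in OLs, and the other 6 did not pass the test (limma, adjusted over 18972 genes). Over all genes 17.7% were called, 8.52% higher and 9.22% lower, so 2 of 8 is near the share of genes in general. The median log2 difference was -0.01 in the 8 flanks, -0.01 in the flanks of long genes and -0.03 in those of all genes.

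The flanks of Luzp2 held 2.18 and 2.84 kb of peaks in the 129O1 and EpiSC5 OLs, against 0.280 and 0.304 kb in OPCs. Both OL values lay far above both OPC values, and the log2 difference was 2.45 ± 0.31 (SE, n = 2 each, limma adjusted p = 0.00216). No other protein-coding gene lay in this sequence. It held 6 OL-only regions, no OPC-only region and 1 shared region, a density of 3.06 OL-only regions per 100 kb against 2.06 in the gene itself. On the lower-coordinate side, before the start of the gene, 4 OL-only regions lay 44.8 to 62.9 kb away, and 2 more lay 6.81 and 30.1 kb beyond its far end. Beyond that far end neither OPC library had a peak, where OLs had 0.520 and 0.819 kb. The call held in each of the 15 alternatives in which the flank could be tested, with adjusted p up to 0.0419.

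For Nav2 the flanks went the other way, with 3.29 and 3.004 kb in OLs against 4.80 and 4.195 kb in OPCs. The log2 difference was -0.49 ± 0.14 (SE, n = 2 each, limma adjusted p = 0.0390), while the gene itself had more coverage in OLs. E2f8, a cell cycle transcription factor gene, and Dbx1, a homeobox gene of neural progenitors, lie in this sequence, and with them left out the log2 difference was -0.74 and the adjusted p 0.0158. The call held in 6 of 16 alternatives and was lost without the 129O1 OL, the EpiSC5 OL or the 129O1 OPC library (adjusted p = 0.102, 0.204 and 0.146 by limma).

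Around the other genes the groups overlapped or missed the threshold. The Kirrel3 flanks, with 5.17 and 6.10 kb in OLs against 4.80 and 4.51 kb in OPCs, did not overlap but gave a limma adjusted p of 0.161. For Ptprg the values were 2.37 and 2.80 kb in OLs and 1.30 and 2.36 kb in OPCs (adjusted p = 0.192), and without the EpiSC5 OPC library the limma adjusted p was 0.00648. The flanks of Csmd1 had 1.82 and 1.88 kb in OLs against 2.29 and 2.02 kb in OPCs (adjusted p = 0.534 by limma), the direction opposite to the gene. Astn2, Pde4d and Elmo1 had log2 differences between -0.18 and 0.11. Sntg1 had too little coverage for the test, with 0.253 and 0.286 kb in OLs and no peak in OPCs.

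Densities were lower outside than inside for 8 of the 9 genes, and higher outside for Luzp2. The genes had been chosen by what lies inside them, which favours a lower value outside, so nothing is read from this count. Of the other 289 long genes 186 (64.4%) also had the lower density outside, and of the 68 among them above the upper quartile inside it was 61 (89.7%). OL-only regions per 100 kb were 0.510 in the flanks of Csmd1 against 3.64 inside it, 1.02 against 6.11 for Nav2, 1.53 against 6.32 for Elmo1 and 3.06 against 6.44 for Kirrel3. Over the 9 genes the flanks held 34 OL-only regions, 1.93 per 100 kb. The flanks of long genes in general held 1.18 and those of all protein-coding genes 1.65. Scaling mattered to the balance of calls in this test, since without it 20.2% of called flanks were higher in OLs, against 48.0% with it, and the median of all genes was -0.15 on the log2 scale. With the cell line as a block 5801 flanks were called in place of 3367.

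**Figure D4:**
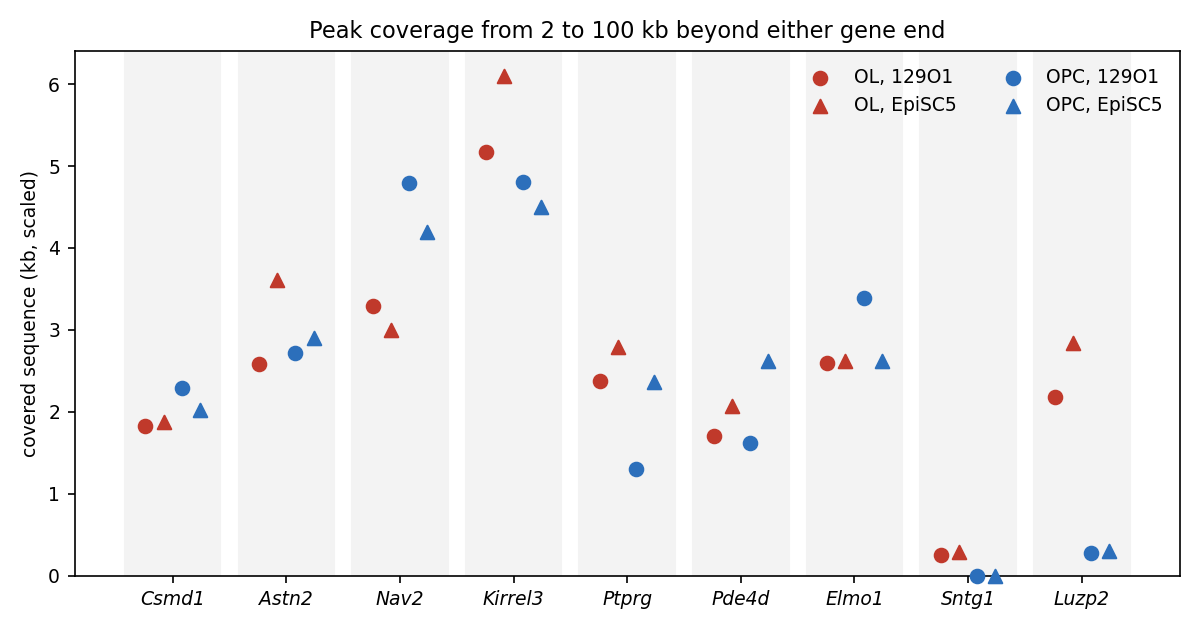
Covered sequence in scaled kb (vertical axis) from 2 to 100 kb beyond either end of the 9 genes (horizontal axis). Each point is 1 library, red for OL and blue for OPC, circles for 129O1 and triangles for EpiSC5. The red points of Luzp2, at 2.18 and 2.84 kb, stand apart from the blue ones at 0.280 and 0.304 kb, and in Nav2 the blue points are the higher ones.

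The contrast between the lines was not used to choose the genes either. With cell type as a covariate, none of the 9 genes differed between EpiSC5 and 129O1 by limma, and 2 of the 9 had an unadjusted p below 0.05. Over all 14543 genes 4 were called, or 0.0275%, and 1668 (11.5%) had an unadjusted p below 0.05. Csmd1 had 28.0 kb in OLs and 10.9 kb in OPCs of EpiSC5, against 34.0 and 17.0 kb in those of 129O1. Its log2 difference was -0.46 ± 0.11 (SE, limma adjusted p = 0.330), and it was lower in EpiSC5 in both cell types. Luzp2 had 7.22 kb in OLs and 1.54 kb in OPCs of EpiSC5, against 4.23 and 1.22 kb in those of 129O1, a log2 difference of 0.52 ± 0.15 (adjusted p = 0.372 by limma). This difference was -0.012 by number of peaks and -0.013 around the summit, and within a cell type it was 0.74 in OLs and 0.29 in OPCs. The other 7 genes had line differences between -0.08 and 0.21. With peaks cut to 200 bp around the summit, Csmd1 passed the threshold (limma adjusted p = 0.0125).

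Close paralogs of 8 of the 9 genes (Luzp2 had none listed) show how far related genes went along. They were taken from gene families and not from their own values. Of 17 paralogs 16 had enough coverage, and 2 were higher and 2 lower in OLs by limma, against 19.6% of all genes called. Their median log2 difference was -0.03, beside -0.02 over all genes. Without scaling 583 genes were called in place of 2857, 33.8% of them higher against 56.1%, the median of all genes was -0.13, and 1 paralog (Pde4c) was called. Over the alternatives in which each was tested, the calls described below held in 11 of 14 for Pde4c, 10 of 16 for Sntb1, 7 of 16 for Csmd3 and 6 of 16 for Sntb2.

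Csmd3, a relative of Csmd1, had 6.63 and 8.83 kb in the 129O1 and EpiSC5 OLs against 5.74 and 3.31 kb in OPCs. Its groups did not overlap, and the log2 difference was 0.78 ± 0.19 (SE, n = 2 each, limma adjusted p = 0.00728). With the cell line as a block the adjusted p was 0.0835, and it was 0.0679 and 0.0656 by limma without the EpiSC5 OL or the EpiSC5 OPC library. Csmd2, the other relative, had 7.86 and 10.6 kb in OLs against 6.82 and 7.98 kb in OPCs (log2 0.30, adjusted p = 0.168 by limma). It passed the threshold without the 129O1 OL library (0.0405) and without the EpiSC5 OPC library (0.0489). OL-only regions per 100 kb were 2.22 in Csmd2 and 1.15 in Csmd3, below the 3.64 of Csmd1.

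Of the cyclic AMP phosphodiesterases related to Pde4d, 1 of 3 was called. Pde4c had 1.41 and 1.30 kb in OLs against 0.528 and 0.485 kb in OPCs (log2 1.14 ± 0.20, SE, limma adjusted p = 0.000505), but by number of peaks its difference was -0.05. Pde4b had 16.6 and 18.6 kb in OLs against 13.9 and 14.5 kb in OPCs (log2 0.30, limma adjusted p = 0.0521), and passed the threshold with 1000 bp added, by number of peaks and around the summit (adjusted p = 0.0469, 0.0463 and 0.0464 by limma). It held 29 OL-only and 7 OPC-only regions, 5.53 OL-only per 100 kb, more than Pde4d with 2.60. Pde4a, with 2.08 and 2.25 kb in OLs and 2.16 and 1.80 kb in OPCs, was not called (log2 0.12, limma adjusted p = 0.693). Counted without the 2 kb on either side, its log2 difference was 0.68 and passed the threshold (adjusted p = 0.0139 by limma).

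Of the syntrophin genes related to Sntg1, both beta forms were lower in OLs. Sntb1 had 0.854 and 2.44 kb in OLs against 3.37 and 4.76 kb in OPCs (log2 -1.34 ± 0.27, SE, limma adjusted p = 0.00194). The size of the Sntb1 difference turned on the OL libraries, with -0.67 without the 129O1 one and -2.00 without the EpiSC5 one, and both passed the threshold. Sntb2 had 2.34 and 3.17 kb in OLs against 3.76 and 4.201 kb in OPCs (log2 -0.51, limma adjusted p = 0.0313), and it missed the threshold when the 129O1 OL library (0.323) or the EpiSC5 OPC library (0.107) was left out. Sntg2 (log2 0.21, limma adjusted p = 0.392) was not called, and Sntb1 held 0 OL-only and 5 OPC-only regions, unlike Sntg1 with 11 and 1.

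The remaining relatives did not pass the test. Nav1 had 16.7 and 15.7 kb in OLs against 13.7 and 13.5 kb in OPCs (log2 0.25, limma adjusted p = 0.112), and Nav3 had 7.78 and 8.52 kb in OLs against 10.2 and 10.5 kb in OPCs (log2 -0.34, adjusted p = 0.0586 by limma). Neither pair of groups overlapped. Astn1, Kirrel, Ptprz1 and Elmo2 had log2 differences between -0.17 and 0.05. Kirrel2 had 0.960 and 0.672 kb in OLs against 1.19 and 1.25 kb in OPCs (log2 -0.50, limma adjusted p = 0.0748, and 0.0247 without the 129O1 OL library). Elmo3 had too little coverage for the test.

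The profile of the 9 genes was also set against the other long genes. Taking the median of the 9 in each library, 2302 and 2436 bp per 100 kb in the 129O1 and EpiSC5 OLs and 1844 and 1816 bp in OPCs, the nearest genes were Thsd4, Cdk14, Pard3, Myo16 and Cdkal1. Their distances were 0.158 to 0.252 (Euclidean, on the log2 scale with 100 bp added, over 4 libraries). Thsd4, an extracellular matrix protein gene, had 2258 and 2706 bp per 100 kb in OLs against 1915 and 1836 bp in OPCs. Pard3, a gene of cell polarity, had 2302 and 2350 bp in OLs against 1787 and 2095 bp in OPCs. These 5 genes held 3.29 to 4.70 OL-only regions per 100 kb. Each lay nearer to the median than any of the 9 genes did, from Pde4d at 0.569 to Sntg1 at 4.18. The 5 were picked as the nearest of all other long genes, which favours this order, so nothing is read from it.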

How the data were processed

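Per the submitters' processing notes, MACS2, Picard, Bowtie2 2.3.2 and Trim Galore 0.3.1 were run on mm10. Any shift for the Tn5 cut and the caller's settings were not given in the sources used here. Per library the authors deposited 1 peak list, so peaks were not called on pooled libraries. Each peak has a position, a score, a fold (linear ratio to background) and −log10 values of p and q, as the authors deposited them. They served within a list alone, for description and for ranking.

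Genes came from RefSeq GRCm38.p6. Covered base pairs per gene plus 2 kb, or per flank, were scaled to the mean list total, kept where their mean was at least 500 bp, and analysed as log2(bp + 200), a scale that understates changes of sparsely covered genes. Tests were two-sided moderated tests with a trend (R 4.3.3, limma 3.58.1, Benjamini-Hochberg over all genes, threshold 0.05). The flank and paralog fits had cell type alone, and the line fit had cell type as a covariate.

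The fits were tested on simulated data: 96% of 50 genes given a log2 rise of 1 were recovered in the gene fit over 14543 genes and 96% in the flank fit over 18972, with 32% and 56% at a rise of 0.5 and 74% and 82% at a fall of 1. Same-numbered libraries come from the same line, which pairs them. Their deviations from the group means correlated at 0.287 across 14543 genes. The simulated noise was independent between libraries, without this link, and far fewer genes were changed than were called in the lists. The shares recovered therefore hold for that simpler setting, and recovery in the lists themselves is not known.

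The genes named are the 9 genes, their paralogs (1 is not reported here), nested genes with OL-only regions, the 3 neighbours in rank on either side of the lowest-ranked gene and the 5 nearest profiles, and marker genes came from a list. Sema5a, Agap1, E2f8 and Dbx1 fall outside this rule and were named after their values were seen. The members and lists were chosen with earlier results of these data known. Alternatives covered scaling, the added base pairs, filters, peak subsets and measures, intervals, merging, the block and leaving out each library.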

Additional observations from a re-analysis of the deposited data

Results flagged for a closer look

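In 5 of the cases reported here the difference between OLs and OPCs had opposite signs in the lines, and none of these differences between lines was tested. Values are the EpiSC5 difference minus the 129O1 difference, on the log2 scale. For coverage of Pde4d this was 0.19, from an OL minus OPC difference of 0.05 in EpiSC5 and -0.15 in 129O1. For the flanks of Astn2 it was 0.36, from 0.29 and -0.07, and for the flanks of Pde4d -0.38, from -0.32 and 0.07. Among paralogs it was 0.34 for Pde4a (0.29 and -0.05) and -0.15 for Elmo2 (-0.02 and 0.13). None of these 5 was called between OLs and OPCs, and Pde4d itself was not tested.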

How the results depend on the processing

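The lists carry no read counts, so limits from the usable depth could not be computed, and 2 libraries per group limit each test. The 7 genes without overlap between OLs and OPCs became 4 when each list was cut to its best 50% by q. They were 7 to 9 when a library was left out, which can only keep or raise this count, so nothing is read from it. The share of all genes was not computed for these settings. In the best 50% the summed regions were 136 OL-only, 46 OPC-only and 75 shared. OL-only minus OPC-only regions stayed positive there in every gene but were fewer, with 1 in Elmo1, 3 in Nav2, 4 in Kirrel3 and 21 in Ptprg. With all peaks they were 19, 28, 27 and 25. Among the 298 long genes Nav2 ranked 46 in OL-only density in place of 6, Elmo1 25 in place of 4 and Kirrel3 10 in place of 3. Csmd1 stayed at 32, and Ptprg alone rose, from 11 to 2. Of the 9 genes 6 lay above the upper quartile, in place of 7. With a library left out the summed regions were 337 to 495 OL-only (495 without the 129O1 OL library), 97 to 210 OPC-only and 209 to 234 shared. The Kirrel3 difference turned to -0.027 without scaling and -0.27 in the best 50%. That of Pde4d turned to 0.0088 by number of peaks and 0.0085 around the summit, and ran from -0.13 to 0.038 with a library left out (positive without the 129O1 OL library). OL-only minus OPC-only regions in Pde4d then ran from -6 (without the EpiSC5 OPC library) to 43. Leaving out a library loosens the definition of the region classes, which by itself adds regions to them. The cause of the other changes was not tested.

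Of the 2 flanks called, 1 was called without scaling, with median-of-ratios scaling, without the filter, in the best 50%, by number of peaks and around the summit, and 1 to 2 with a library left out. With Ptprg, gained without the EpiSC5 OPC library, 1 to 3 flanks were then called in all. Within 2 to 50 kb 0 were called, where Luzp2 had too little coverage for the test. All flanks called numbered 3367, and 2113 without scaling, 1972 in the best 50%, 2023 by number of peaks, 1970 around the summit, 1101 and 759 without the 129O1 or EpiSC5 OL library, and 5801 with the replicate block. In the line test 0 of the 9 genes were called except 1 around the summit, and 0 to 26 of all genes. Leaving out a library there left no residual degrees of freedom, so values alone were computed.

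Of the 4 paralogs called, 1 (Pde4c) was called without the filter, without scaling and by median-of-ratios scaling, 0 by number of peaks and around the summit, 2 in the best 50%, with lists of equal length and with 0 or 20 kb on either side, and 2 to 4 with a library left out (2 without the EpiSC5 OPC library). Gained calls were Pde4b by number of peaks, around the summit and with 1000 bp added, Pde4a without flank, and Csmd2 or Kirrel2 with a library left out, so that 1 paralog was called in all by number of peaks or around the summit, and 3 to 5 with a library left out. Pde4c turned to -0.048 by number of peaks and -0.048 around the summit. All genes called numbered 2857 of 14543 tested, and 1637 of 13586 in the best 50%. They were 654 of 9009 by number of peaks and 742 of 10304 around the summit, where fewer genes were tested. With 0 and 20 kb on either side they were 2623 of 12556 and 3024 of 17302. The replicate block changed the Csmd3 call and no other among the flanks and paralogs. Of the log2 differences recomputed under alternatives, signs changed in 9 of 127 flank, 15 of 253 paralog and 19 of 126 line values, and apart from the 2 of Pde4c none of these was past the threshold in the main result.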

Other observations

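Regions with a peak in a single list were uneven over the libraries. Summed over the genes described here, 181 were listed in EpiSC5 OLs alone and 56 in 129O1 OLs alone. For OPCs the sums were 112 in 129O1 alone and 78 in EpiSC5 alone. Every gene except Csmd1 had more regions in EpiSC5 OLs alone than in 129O1 OLs alone. The EpiSC5 OL list is also the longer one, with 152595 peaks against 127196. Whether the genes differ in this from the whole lists was not tested. In Csmd1 27 regions were listed in 129O1 OLs alone, 25 in EpiSC5 OLs alone, 28 in 129O1 OPCs alone and 2 in EpiSC5 OPCs alone. In Luzp2 16 of 31 regions were listed in EpiSC5 OLs alone, 0 in 129O1 OLs alone, 2 in 129O1 OPCs alone and 1 in EpiSC5 OPCs alone. Astn2 had 31 regions in EpiSC5 OLs alone and 6 in 129O1 OLs alone, and Kirrel3 16 and 1. Of the OPC libraries, Nav2 had 14 regions in 129O1 alone and 21 in EpiSC5 alone.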
